A study of Caenorhabditis elegans with 20 samples.

Results

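The DMSO control worms of both experiments were 10 of the 20 arrays of the series, chosen by their titles, with 5 arrays for each share of DMSO. Whole nematodes of strain DA1316, which carries avr-14(ad1302), avr-15(ad1250) and glc-1(pk54) in the labels, were grown from synchronised L1 larvae for 53 hr at 20 °C on NGM plates with a lawn of OP50 bacteria. They were then moved for 4 hr to plates with 0.01% DMSO, the control of the 1 µg/ml ivermectin (IVM) experiment, or with 0.001% DMSO, the control of the 100 ng/ml experiment. All groups carry the 3 mutations, which affect glutamate-gated chloride channel subunits that IVM acts on, and no wild-type array was among them. The 5 arrays of a group are called 0.01% control 1 to 5 and 0.001% control 1 to 5 after their biological replicate numbers. In the methods of the study the worm suspension of each replicate was divided between control and IVM plates. By that account each control array has an IVM array of the same number from the same culture, which was not tested. The share of DMSO and the experiment went together, so their effects cannot be told apart.

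The sources differed on several points. The description text of all 20 samples names 1.5% DMSO and that of 0.001% controls 2 to 5 also names ABZ, taken to be the drug albendazole, as does that of IVM arrays 1 to 3 of the 100 ng/ml experiment, while titles, source names and exposure labels name DMSO alone. The methods give the *avr-15* allele as vu227. The labels call the worms adult, the design text has them grown to L4 and the methods call them L4 or young adults.

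*C. elegans* passes through 4 larval stages, L1 to L4, each ended by a moult in which epidermal cells secrete a new collagen cuticle and the old one is shed. The hermaphrodite germline makes sperm first and then switches to oocytes as the animal becomes adult, and the adult intestine secretes yolk proteins, the vitellogenins, which the oocytes take up. Genes for moulting, yolk, eggshell and adult cuticle are therefore switched on or off over a few hours around the age at which these worms were collected.

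Values were RMA probeset intensities on the log2 scale, on which a difference of 1 is a 2-fold difference, for 20563 probesets that stand for 16669 genes with a probeset of their own. Correlations between control arrays across probesets ran from 0.913 to 0.994, so no pair of arrays was a copy. Probesets differ in how well they bind, so intensities of different genes are not an order of their RNA amounts, and in whole worms fewer cells of a type and less RNA in each cell cannot be told apart.

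Among the control arrays, 3 sets stood apart. In 0.01% control 2 the yolk and oocyte genes and the adult collagen gene *col-19* were far lower than in the other 9 controls. The 0.001% controls 2, 3 and 4 were together above the 7 other controls by more than 0.5 in 704 probesets, which is 3.42% of all, and below them in 104. The array labelled 0.001% control 4 had, besides, high values of genes that the study names as induced by IVM, and its IVM array had low values. This pair may have been exchanged, which was not tested, and its values are given as labelled. Results that rest on these arrays are given with and without them.

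Among probesets annotated to 1 gene, the brightest of the controls were those of cuticle collagens and ribosomal proteins. Probesets annotated to several genes or to none did not enter this ranking. Of the 10 genes with the highest mean intensity in it, the ribosomal protein genes were *rpl-24* at 13.47, *rpl-8*, *rpl-21* and *rpl-17*. The collagens were *col-93* at 13.95, *col-160*, *dpy-13*, *col-125*, *col-119* and *sqt-3*. The probesets of these collagens carry the suffix _x_at and may also pick up RNA of other collagens. The SD of these 10 genes within groups, pooled over both, was 0.08 to 0.22 except for *col-125* (0.43). *col-125* had 13.87, 13.88, 13.11, 12.91 and 12.83 in 0.01% controls 1 to 5 and 13.22, 13.97, 14.03, 13.75 and 13.86 in 0.001% controls 1 to 5. It was thus lowest in 0.01% controls 3 to 5 and 0.001% control 1, and the groups overlapped. Its level differed between cultures in both experiments (limma F test, adjusted p = 0.0018 at 1 µg/ml and 0.012 at 100 ng/ml).

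Families were taken as genes whose names share the letters before the hyphen, and 165 families had 10 or more genes, 5176 genes in all. The small ribosomal subunit family rps was brightest, with a median gene at 13.03 and all 30 genes above the 90th percentile of genes, 8.95. It was followed by rpl of the large subunit (12.96), the major sperm proteins msp (12.43, 23 of 23 genes above it), the cytochrome c oxidase subunits cox (11.50), the vacuolar proton pump subunits vha (10.28) and the aspartyl proteases asp (10.18). A bright family could hold a dim member, such as *rpl-42* at 6.0 and *asp-11* at 3.60, and *cox-10*, at 5.26, is in other species a factor for assembly of the enzyme rather than a subunit. The dimmest families were the MATH-domain genes math (3.56, 29 of 45 genes below the 10th percentile, 3.75), the chemoreceptor families srb (3.70) and srz (3.83), and pals (3.75), chil (3.81) and irld (3.87). Again some members stood out, with *math-33* at 7.46, *irld-3* at 7.75 and *chil-10* at 6.99.

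**Figure D1:**
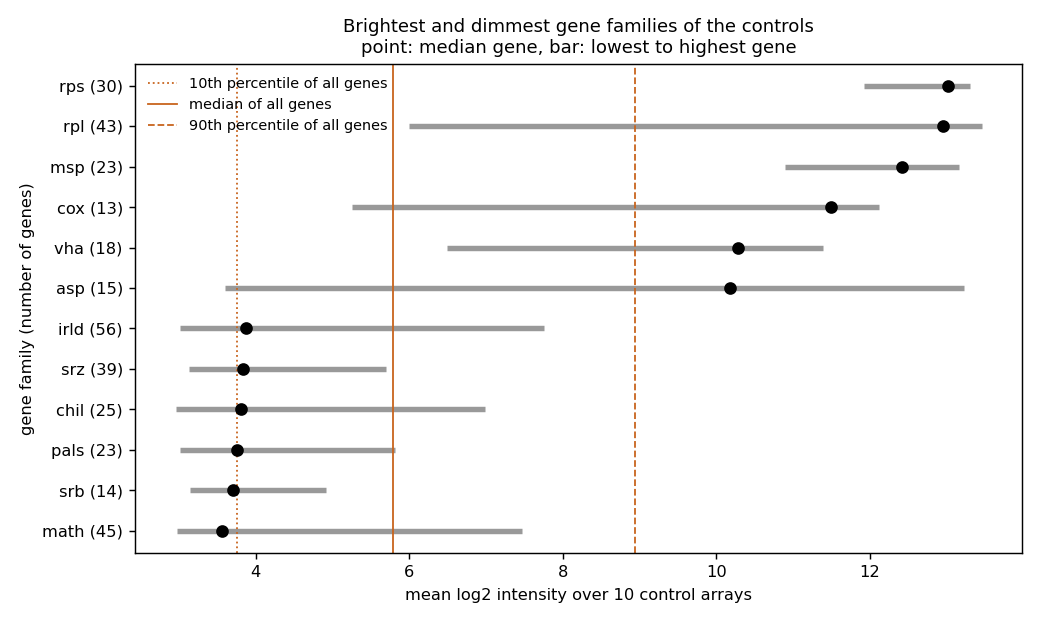
Mean log2 intensity over the 10 control arrays (x axis) for the 6 brightest and 6 dimmest gene families (y axis, number of genes in brackets), with the median gene as a point and the lowest to highest gene as a bar. The points of the bright families lie at 10.18 or higher and those of the dim families at 3.87 or lower, while the bars of rpl, cox and asp reach down to 6.0, 5.26 and 3.60.

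The bright families were not equally steady from culture to culture. The median rps gene ran from 12.86 to 13.08 over the 10 control arrays (SD 0.08), and the median rpl gene from 12.84 to 13.12 (SD 0.10). The median msp gene ran from 11.72 to 12.86 (SD 0.42), vha from 9.30 to 10.99 (SD 0.48) and asp from 9.07 to 11.09 (SD 0.54).

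Yolk genes separated 1 culture from all others. *vit-4* had 11.60, 5.91, 12.72, 12.86 and 12.35 in 0.01% controls 1 to 5 and 12.22, 12.21, 11.55, 12.33 and 11.41 in 0.001% controls 1 to 5. All 5 yolk genes with a probeset annotated to 1 gene (*vit-1*, *vit-2*, *vit-4*, *vit-5* and *vit-6*) were lowest in 0.01% control 2. Over all genes that array held the lowest value for 14.3%. The probesets of *vit-4* and *vit-5* carry the suffix _x_at and may share RNA, so these genes may not count apart. *vit-6*, the most diverged of the vitellogenins, had 8.49 there and 12.18 to 13.01 in the other 9 controls. The IVM plate of the same culture had 5.81 for *vit-4*, against 10.47 to 12.79 on the other 9 IVM plates.

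Genes of the oocyte and its eggshell went with yolk in that array. Of 18 genes of this list, 17 were lowest in 0.01% control 2. *perm-2*, which codes for a protein of the eggshell permeability barrier, had 10.97, 6.88, 11.72, 11.75 and 11.49 in 0.01% controls 1 to 5 and 10.75 to 11.87 in the 0.001% controls. Of 13 genes of the early embryo list, 7 were lowest in that array. Of these *pos-1*, a zinc-finger regulator of maternal RNAs, had 8.15 in 0.01% control 2 against 10.42 to 11.65 in the others, and *nos-2*, a maternal RNA of the Nanos family, had 5.56 against 7.51 to 10.03. By contrast *skn-1*, a transcription factor of the same list, had 5.48 in 0.01% control 2 and its lowest value, 4.67, in 0.01% control 5. Of 44 sperm genes, 10 were lowest in 0.01% control 2 and 28 in 0.01% control 4, against 14.3% and 11% of all genes. On the IVM plate of culture 2, however, the median difference of the sperm genes from the mean of the controls was -1.27, lower than on any of the other 19 arrays (-0.65 to 0.56). *msp-38* had 11.11 on that plate and 11.59 to 12.75 on the other IVM plates.

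Moulting genes ran the other way, as did several other lists. Of 16 moulting genes 12 were highest in 0.01% control 2, which held the highest value for 15.4% of all genes. So were 8 of 14 intestine genes, 7 of 13 neuron genes and 10 of 17 fatty acid desaturase and elongase genes, and their part in the moulting result was not tested. *noah-2*, which codes for a protein of the extracellular matrix laid down in moulting, had 7.84, 10.13, 6.67, 6.31 and 6.09 in 0.01% controls 1 to 5 and 6.17, 8.54, 8.38, 7.31 and 6.96 in 0.001% controls 1 to 5. It was highest in 0.01% control 2, next highest in 0.001% controls 2 and 3, and lowest in 0.01% controls 3 to 5 and 0.001% control 1. *mlt-8* followed nearly the same order, with 8.54, 9.65, 6.49, 5.80 and 6.28 in the 0.01% controls and 6.77, 8.79, 9.18, 7.57 and 7.83 in the 0.001% controls, again with wide overlap of the groups.

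Cuticle collagens did not move as 1 group in that array. Of 147, 27 were lowest (18.4%) and 31 highest (21.1%) in 0.01% control 2, against 14.3% and 15.4% of all genes. *col-19*, the standard marker of adult cuticle, had 7.13 in 0.01% control 2 and 11.58 to 12.08 in the other 0.01% controls, and 11.40 to 12.13 in the 0.001% controls, so 0.01% control 2 stood alone below the rest. *bli-1*, a collagen of the adult cuticle struts, had its highest value, 8.50, in that same array, followed by 8.14 and 7.87 in 0.001% controls 3 and 2, against 5.54 to 5.88 in 0.01% controls 3 to 5. *bli-2*, its partner, had 9.55, 10.38, 7.14, 6.98 and 7.05 in the 0.01% controls and 7.39, 9.04, 9.37, 7.46 and 8.80 in the 0.001% controls. Of 9 epidermis and seam genes 6 were highest in 0.01% control 2, among them the collagen *dpy-7* at 11.21 against 7.72 to 9.04 and the hedgehog-related *wrt-10* at 11.11 against 6.61 to 8.89. Of the others, *grd-3*, also hedgehog-related, had 9.72 there, below the other 0.01% controls (10.47 to 11.32), and *ajm-1*, of the apical junction, and *lin-26*, an epidermal transcription factor, were highest in 0.001% controls 3 (7.76) and 4 (8.63). No stage was scored on these cultures in the sources used here, so stage itself was not tested.

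**Figure D2:**
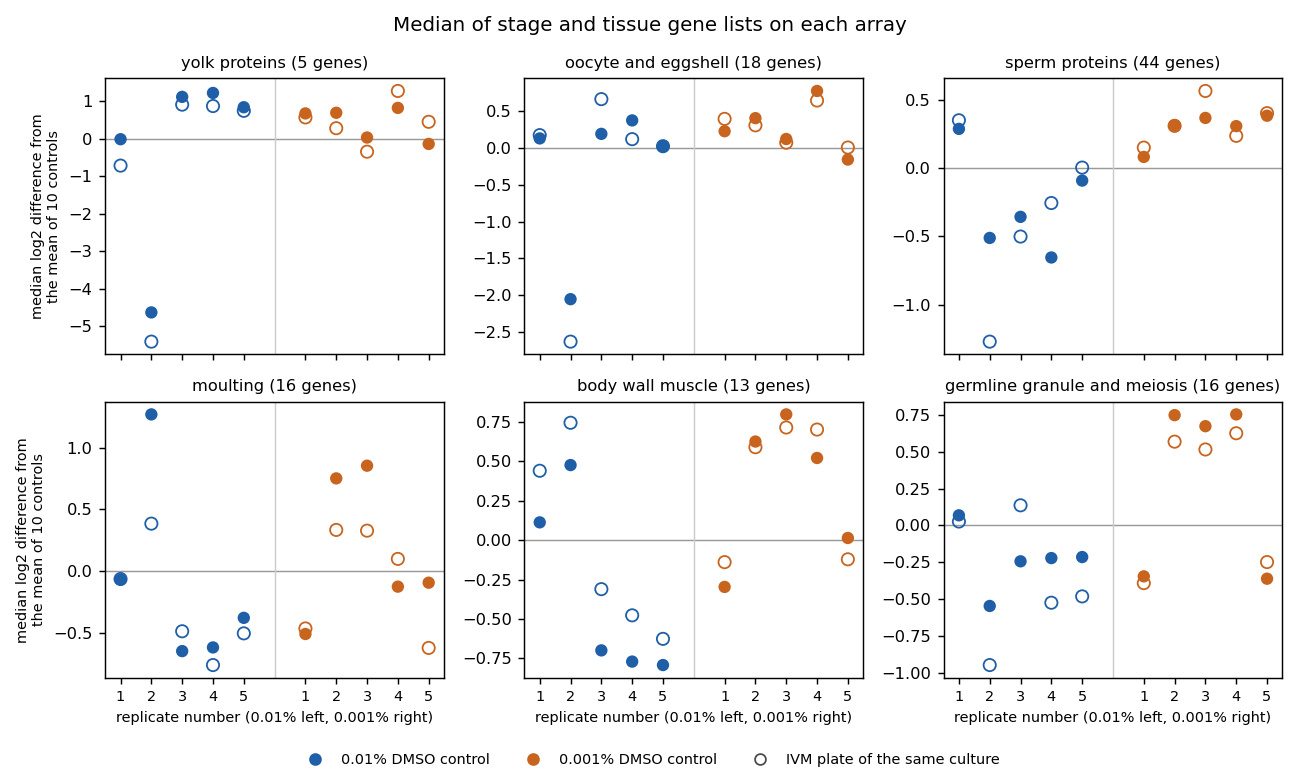
Median over the genes of 6 lists of the log2 difference from the mean of the 10 controls (y axis), for each replicate (x axis, 0.01% DMSO left and 0.001% DMSO right); filled points are control arrays and open points the IVM plates of the same cultures. The yolk median is at -4.63 in 0.01% control 2 and at -5.41 on its IVM plate, and 0.001% controls 2 to 4 are high for the germline list.

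These differences between cultures were set against the difference between the control and IVM plates of a culture. Of the 20563 probesets, 8425 (41%) differed between the 5 cultures of the 1 µg/ml experiment and 8110 (39.4%) between those of the 100 ng/ml experiment (limma F test, adjusted p under 0.05), and 5012 (24.4%) did so in both. Counted once a gene, the shares were 41.2% and 39.7% of 16669 genes. All 5 yolk genes were called at 1 µg/ml and 3 at 100 ng/ml, and 16 of 18 oocyte and eggshell genes were called in each experiment. Moulting genes were called 12 of 16 times at 1 µg/ml and 11 of 16 at 100 ng/ml. By contrast 7 of 73 ribosomal protein genes and 144 of 1129 chemoreceptor genes were called at 1 µg/ml, and 3 and 90 of them at 100 ng/ml. The median ribosomal protein gene was near the top of the scale, at 12.99, and the median chemoreceptor gene near the bottom, at 4.10. The part of intensity in these counts was not tested. Sperm genes were called 33 of 44 times at 1 µg/ml and 9 of 44 at 100 ng/ml, and germline granule and meiosis genes 7 of 16 and 15 of 16 times; the difference between the experiments was not tested. Without culture 2 the count at 1 µg/ml was 5332, and with cultures 2 to 4 alone the count at 100 ng/ml was 461, while without culture 4, which holds the array labelled 0.001% control 4, it was 8065.

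The genes with the largest spread were those with very low values in 0.01% control 2. The SD within groups, pooled over the 10 control arrays, had a median of 0.26 over all probesets and was above 1 in 422 of them (2.05%). It was largest for *C10G8.4* (2.43), *ZK813.7*, *ZK813.1*, *Y62H9A.4*, *ule-5*, *Y57G11B.5*, *vit-4*, *stha-3*, *EEED8.3*, *Y37D8A.19*, *vit-5* and *K07A1.6* (1.98). *C10G8.4* had 9.79, 3.80, 11.43, 11.28 and 11.12 in 0.01% controls 1 to 5 and 10.85, 8.95, 7.77, 9.53 and 9.68 in 0.001% controls 1 to 5. *ule-5*, named for a protein found in the uterine lumen, had 10.22, 4.40, 11.17, 11.32 and 11.13 in the 0.01% controls and 10.94, 9.97, 9.24, 10.55 and 10.21 in the 0.001% controls. Both were lowest in 0.01% control 2, and among the 0.001% controls both were lowest in control 3 and highest in control 1.

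The IVM arrays, which did not enter that ranking, had the same low points. All 12 genes were lowest in array 2 of the 1 µg/ml IVM group and in array 3 of the 100 ng/ml IVM group, while among the 0.001% controls 10 of 12 were lowest in array 3 and the yolk genes *vit-4* and *vit-5* in array 5. Of the 100 probesets with the largest SD among controls, 75 were among the 100 with the largest SD among IVM arrays. The ranking rested on a single array, since without 0.01% control 2 none of the 12 remained among the 12 most variable genes, whereas all 12 remained when any other array was left out.

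Without 0.01% control 2 the most variable genes formed another pattern. The largest SD was that of *pud-3* (1.93) and *pud-4* (1.87), which are named for proteins raised in *daf-2* insulin receptor mutants, and of *mtl-1* (1.77), a metallothionein. *pud-3* had 4.43, 4.25, 7.66, 6.99 and 5.42 in 0.01% controls 1 to 5 and 9.60, 4.61, 4.99, 4.44 and 4.64 in 0.001% controls 1 to 5, so that 0.001% control 1 stood highest and 0.01% controls 3 to 5 came next. On the IVM plates of the 100 ng/ml experiment *pud-3* was high in culture 1 (7.72) and also in culture 5 (8.17), in which the control array was not.

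Next in that ranking came genes that were low in the arrays in which moulting genes were low. They were *ZK180.5*, the hedgehog-related gene *wrt-4*, the collagen *col-109*, *E01G4.6*, *H10E21.4*, *R12E2.7* and *ZK1025.3*. *wrt-4* had 9.54, 10.07, 5.83, 5.62 and 5.68 in 0.01% controls 1 to 5 and 6.85, 9.74, 10.21, 8.25 and 8.31 in 0.001% controls 1 to 5. Its lowest values were thus in 0.01% controls 3 to 5 and 0.001% control 1. *sqt-1*, a collagen needed for body shape, had the same low arrays, with 6.97, 6.29 and 7.14 in 0.01% controls 3 to 5 and 6.65 in 0.001% control 1, against 8.26 to 10.82 in the other 6 controls. The remaining 2 of these 12 genes, *rpn-2*, a proteasome subunit, and *kin-19*, a casein kinase, were highest in 0.001% controls 2 to 4.

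**Figure D3:**
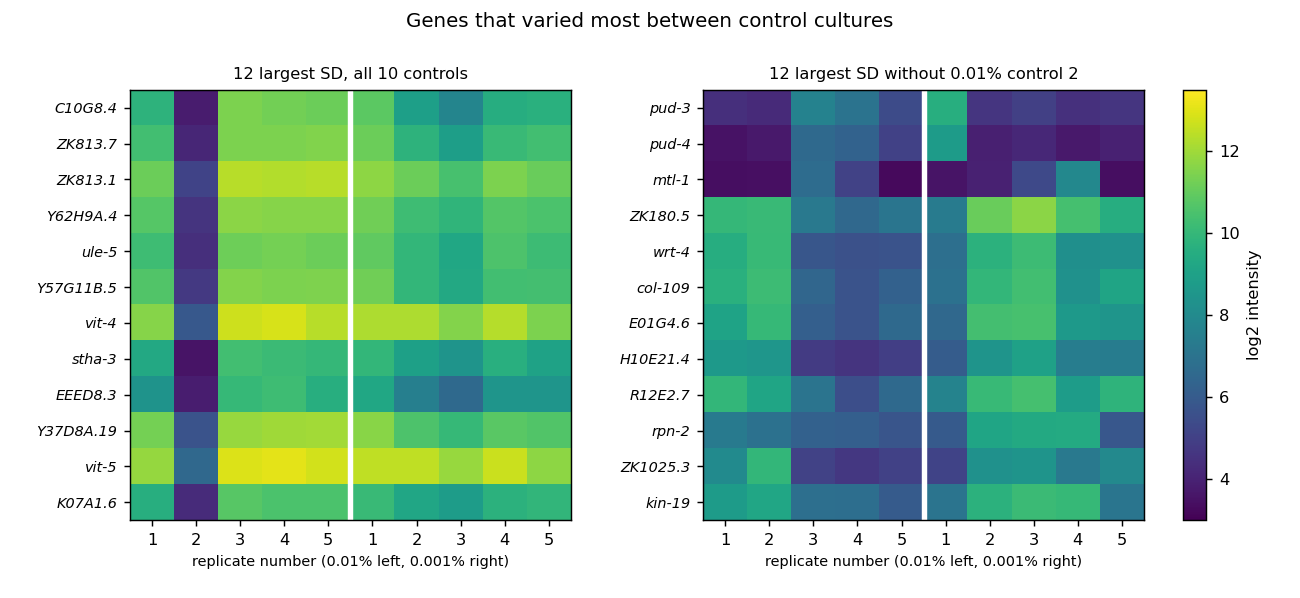
Log2 intensity (colour) of the 12 genes with the largest SD over all 10 control arrays (left) and of the 12 with the largest SD without 0.01% control 2 (right), by replicate (x axis, 0.01% DMSO left of the white line and 0.001% DMSO right). On the left all 12 genes are darkest in 0.01% control 2, and on the right *pud-3* and *pud-4* are brightest in 0.001% control 1.

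The set of 0.001% controls 2 to 4 was shared with their IVM plates. In 676 of the 704 probesets that were high in these controls (96%), IVM arrays 2 to 4 of the same experiment were also above all 7 other IVM arrays, and in 86 of the 104 low ones they were below. No gap was asked of the IVM arrays, and the share of all probesets in which they lay so is not given. The gene with the widest gap was *aars-2*, an alanyl-tRNA synthetase, with 4.58 to 5.13 in the 0.01% controls and 4.68, 7.37, 7.57, 7.42 and 4.86 in 0.001% controls 1 to 5. *egl-30*, the G protein alpha subunit of the Gq class, came next with 8.24 to 8.95 in the 3 arrays against 5.82 to 6.17 in the others, then *T04F3.1* and the importin *ima-3* (8.37 to 8.79 against 5.46 to 6.45). These 4 genes were chosen after their values were seen, for the width of the gap.

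Of the tissue lists, the germline list had the most such genes for its size, 9 of 16, against 3.42% of all probesets. *gld-1*, an RNA-binding regulator of germline development, had 7.67, 6.66, 6.65, 6.78 and 6.74 in 0.01% controls 1 to 5 and 6.96, 8.51, 8.76, 8.83 and 6.72 in 0.001% controls 1 to 5. *nos-3*, of the same list, had 8.45 to 8.85 in 0.001% controls 2 to 4 against 6.29 to 6.79 in the other 7. *unc-54*, the main myosin heavy chain of body wall muscle, was also higher in these 3 arrays, at 11.85 to 12.08 against 8.7 to 11.14 in the others. None of 73 ribosomal protein genes, 44 sperm genes or 147 cuticle collagens was among the 704. As the 704 were 3.42% of all probesets, having none is near that share for the smaller lists.

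The genes in question were long, with a median span of 5759 bases in the RefSeq annotation of WBcel235 against 2365 for all genes with a probeset. The difference between 3′ and 5′ probesets of the actin, Gapdh and catalase controls lay, in the 3 arrays, within the range of the other 7. For ubiquitin the 3 arrays had 2.661, 2.088 and 2.195, by replicate number, against 2.319 to 2.820. All but the first of them thus lay below the other 7. The difference between 3′ and middle probesets of ubiquitin ran alike, with 2.012, 1.730 and 1.758 against 1.846 to 2.548. Whether RNA ends had a part in this set of arrays was not tested. No extraction, labelling or scan batch was given in the sources used here, and the part of any such batch was not tested.

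**Figure D4:**
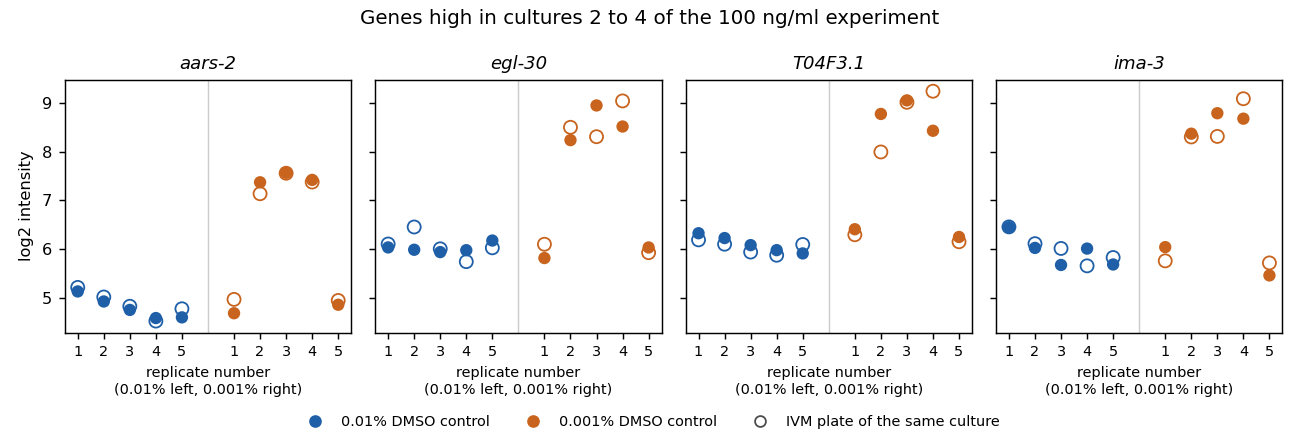
Log2 intensity (y axis) of 4 genes on each array by replicate (x axis, 0.01% DMSO left and 0.001% DMSO right), with filled points for controls and open points for the IVM plates of the same cultures. Both plates of cultures 2 to 4 at 0.001% DMSO lie above every other array, *aars-2* at 7.37 to 7.57 in the controls against 4.58 to 5.13 in the other controls.

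No probeset differed between the control groups after adjustment. In the comparison of 0.01% with 0.001% DMSO, the smallest adjusted p from limma was 0.42, so of 20563 probesets 0 passed the threshold of 0.05 in either direction. Log2 fold changes are given as 0.01% minus 0.001% DMSO. At an unadjusted p under 0.05 there were 2249 probesets (10.9%), 1410 higher and 839 lower in 0.01% DMSO. The 5 arrays of each group did not overlap in 173 probesets that were higher (0.841%) and in 43 that were lower (0.209%) in 0.01% DMSO. With array quality weights, which ran from 0.29 for 0.01% control 2 to 3.38 for 0.01% control 3, limma called 3678 higher and 3477 lower, so the count of 0 holds for equally weighted arrays. With equal weights and 0.001% controls 2 to 4 left out, 0 were called and 461 had an unadjusted p under 0.05.

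The 10 genes with the smallest p had an adjusted p of 0.42 each, and in all 10 the groups did not overlap. *cpr-8*, a cathepsin B-like protease, had 7.5, 7.76, 7.14, 7.60 and 7.60 in 0.01% controls 1 to 5 and 6.84, 6.67, 6.75, 6.41 and 6.69 in 0.001% controls 1 to 5, a log2 fold change of 0.85 (SE 0.13). *nlp-40*, an intestinal neuropeptide that times defecation, had 10.26 to 10.47 in the 0.01% controls and 9.46 to 10.05 in the 0.001% controls, a log2 fold change of 0.69 (SE 0.12). *T01D3.6*, the only 1 of the 10 with lower values in 0.01% DMSO, had 7.29, 7.85, 7.35, 6.85 and 7.30 in the 0.01% controls and 8.01, 9.24, 9.26, 9.10 and 8.52 in the 0.001% controls. Its log2 fold change was -1.50 (SE 0.26), and -0.94 without 0.001% controls 2 to 4, the 3 arrays in which it was highest.

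The other genes of the 10 were *ttr-24* (0.70), a transthyretin-related gene, *hrg-10* (0.80), of the haem-responsive genes, *F55A12.2* (0.65), *C17C3.1* (1.23), *C23H5.8* (0.64), *dtmk-1* (0.56), a thymidylate kinase, and *C05D11.13* (0.56). The values in brackets are log2 fold changes. For *ttr-24*, 0.001% control 1 had 8.58 and the other 0.001% controls 8.02 to 8.23, against 8.73 to 9.05 in the 0.01% controls, so control 1 lay nearest to the other group.

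**Figure D5:**
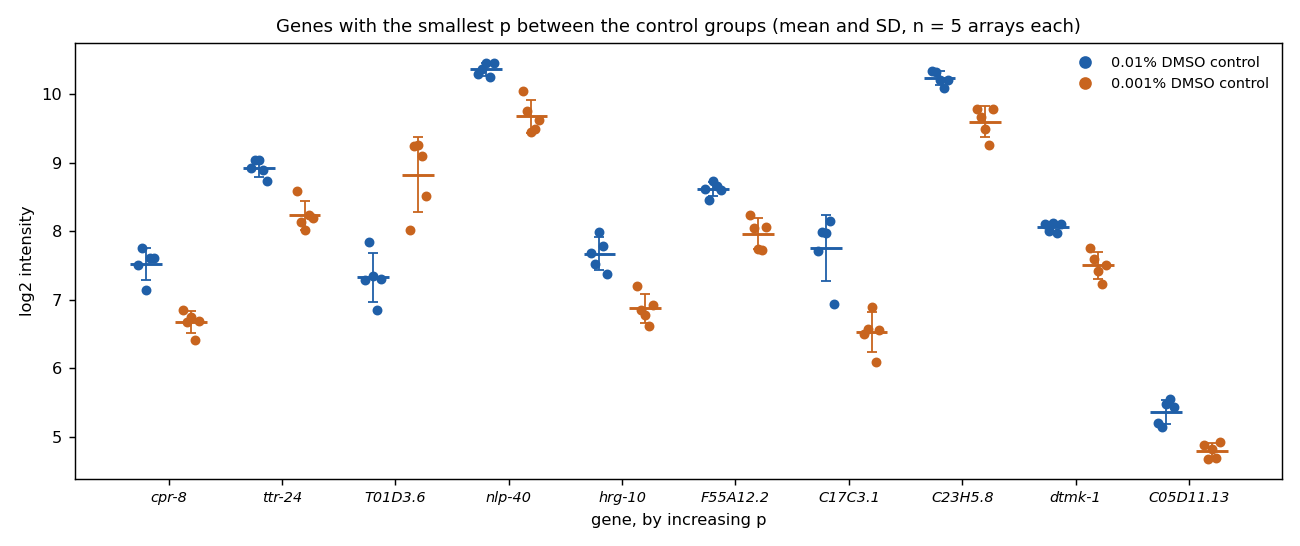
Log2 intensity (y axis) of the 10 genes with the smallest p between the control groups (x axis, by p), for 0.01% DMSO at the left and 0.001% DMSO at the right of each pair, with a point for each array and the mean and SD (n = 5 each). The points of the 2 groups do not overlap for any of the 10 genes, and *T01D3.6* alone is lower in 0.01% DMSO.

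The median difference of the sperm genes between the groups changed little without 0.001% controls 2 to 4 or without 0.01% control 2. On single arrays, the list's median difference from the mean of the controls was 0.29 in 0.01% control 1 and -0.65 to -0.09 in 0.01% controls 2 to 5. It was 0.08 to 0.38 in the 0.001% controls, so the groups overlapped at 0.01% control 1. Of 44 sperm genes, 42 had a lower mean in 0.01% DMSO, with a median log2 fold change of -0.55, against 7364 of 16669 genes and a median of 0.03 for all genes. None passed the adjusted threshold, and 28 had an unadjusted p under 0.05, against 1857 of 16669 for all genes. *msp-38*, a major sperm protein, had 12.31, 11.94, 11.90, 11.64 and 12.04 in 0.01% controls 1 to 5 and 12.33, 12.48, 12.62, 12.72 and 12.54 in 0.001% controls 1 to 5 (log2 fold change -0.57, SE 0.13, limma adjusted p = 0.42). The groups did not overlap but came close, at 12.31 in 0.01% control 1 and 12.33 in 0.001% control 1. *spe-4*, a presenilin of sperm, had 7.48, 7.36, 5.99, 6.07 and 6.49 in the 0.01% controls and 6.69, 7.31, 7.44, 6.56 and 7.42 in the 0.001% controls, so its groups overlapped. The median of the list was -0.50 without 0.001% controls 2 to 4 and also without 0.01% control 2. It is not given without 0.01% control 4, the array lowest for 28 of the 44 genes. The msp genes are near-identical copies, so their probesets may share RNA.

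Other lists depended on the arrays that stood apart. The yolk median was -0.82 with all arrays and 0.41 without 0.01% control 2, and the oocyte and eggshell median was -0.52, with 18 of 18 genes lower, and -0.04 without that array. Without 0.001% controls 2 to 4 these medians were -0.57 and -0.24. The germline median was -0.57 and the body wall muscle median -0.66 with all arrays, 0.10 and -0.06 without 0.001% controls 2 to 4, and -0.44 and -0.85 without 0.01% control 2. The moulting median was -0.21 with all arrays, 0.18 without these 3 arrays and -0.57 without 0.01% control 2. The adult and L4 cuticle median, over 3 genes, was -0.57, 0.13 and -0.73 under the same conditions. Ribosomal protein genes had a median of 0.14, or 0.04 without 0.001% controls 2 to 4, and 65 of 73 were higher in 0.01% DMSO, none past the adjusted threshold.

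Genes that the study names as changed by IVM were compared across the controls, since they check the labels. These lists were chosen by the study on arrays of this series. *scl-2*, of the SCP/TAPS secreted protein family, had 8.20, 8.42, 8.38, 7.88 and 8.10 in 0.01% controls 1 to 5 and 7.86, 7.65, 7.77, 9.80 and 8.69 in 0.001% controls 1 to 5. On the IVM plates it had 10.93 to 11.70 at 1 µg/ml, and at 100 ng/ml 10.07, 10.52, 10.41, 7.34 and 10.42. The array labelled 0.001% control 4 was thus the highest control and its IVM array the lowest of all IVM arrays. An exchange of these arrays was not tested and the labels do not name one. *cyp-37B1*, a cytochrome P450, was likewise highest in that control, at 6.60 against 4.51 to 5.41.

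*mtl-1* was less clear. It had 3.38, 3.43, 6.70, 5.08 and 3.27 in 0.01% controls 1 to 5 and 3.55, 3.95, 5.3, 7.89 and 3.38 in 0.001% controls 1 to 5. The array labelled 0.001% control 4 was highest, yet 0.01% controls 3 and 4 and 0.001% control 3 were also above the rest, and its IVM array, at 6.59, lay within the other 100 ng/ml IVM arrays (6.48 to 7.20).

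Over the 15 genes named as induced, the median difference from the mean of the controls was 1.01 in the array labelled 0.001% control 4 and -0.50 to 0.11 in the other 9 controls. Over the 15 genes named as lowered it was -1.17 in that array and -0.17 to 0.67 in the others. *fat-7*, a stearoyl-CoA desaturase of the second list, had 6.96 there and 8.91 to 9.24 in the other 0.001% controls, against 8.52 to 10.15 in the 0.01% controls. For IVM array 4 of the same experiment the medians were -0.68 and -0.42, against 1.19 to 1.99 and -1.37 to -1.05 in the 4 other 100 ng/ml IVM arrays.

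Between the control groups all 15 genes of the lowered list had a higher mean in 0.01% DMSO, none past the adjusted threshold, with a median log2 fold change of 0.54 with all arrays and 0.35 without the array labelled 0.001% control 4. *C35A5.3* had 9.01, 8.32, 8.91, 8.90 and 8.42 in 0.01% controls 1 to 5 and 7.99, 8.13, 8.04, 7.08 and 7.75 in 0.001% controls 1 to 5, with no overlap (log2 fold change 0.91, SE 0.22, limma adjusted p = 0.42). *spp-23*, of the saposin-like proteins, had 9.68 to 10.02 in the 0.01% controls and 9.71, 9.33, 8.7, 7.5 and 8.72 in the 0.001% controls, where 0.001% control 1 overlapped the other group. Of the 15 induced genes, 12 had a lower mean in 0.01% DMSO (median -0.32, and -0.04 without that array). *lipl-1*, a lysosomal lipase, had 5.05, 5.77, 6.01, 5.53 and 6.47 in 0.01% controls 1 to 5 and 8.75, 6.84, 5.86, 8.49 and 8.01 in 0.001% controls 1 to 5. It was thus high in 4 of the 5 0.001% controls, not in control 4 alone.

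The naming of ABZ on 0.001% controls 2 to 5 was set against the cyp-35 family, cytochrome P450 genes known to respond to albendazole. Of its 10 genes none passed the adjusted threshold between the control groups and 1, *cyp-35A2*, had an unadjusted p under 0.05. *cyp-35A2* had 6.92, 7.34, 6.87, 6.97 and 6.59 in 0.01% controls 1 to 5 and 6.16, 6.60, 6.54, 6.61 and 5.94 in 0.001% controls 1 to 5. *cyp-35C1* had 6.17 to 7.11 in the 0.01% controls, 6.67 in 0.001% control 1, and 6.51, 6.40, 5.28 and 5.96 in the 0.001% controls 2 to 5 whose description names ABZ. For *cyp-35A2* 0.001% controls 2 to 4 were above 0.001% control 1 and control 5 was below it, and for *cyp-35C1* all 4 were below it. None of the 4 was above the range of the 0.01% controls, which belong to the other experiment, for either gene. Over all 10 cyp-35 genes, 0.001% controls 2 to 5 held the highest control value for 0, 1, 0 and 1, against 6.29%, 10.6%, 7.83% and 7.91% of all genes. Whether any of these worms met ABZ was not tested.

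Of the channel genes mutated in the strain, *glc-1* had a mean of 4.47 ± 0.09 in 0.01% DMSO and 4.46 ± 0.23 in 0.001% DMSO (SD, n = 5 each). *avr-14* had 6.57 ± 0.38 and 6.37 ± 0.10 (SD, n = 5 each) on one probeset and 4.92 ± 0.13 and 4.92 ± 0.11 on the other, in 0.01% and 0.001% DMSO. *avr-15* had no probeset of its own. With no wild-type array these levels do not check the mutations. The related subunit genes *glc-2*, *glc-3* and *glc-4* were at 6.92 to 7.86, 5.07 to 5.46 and 5.54 to 6.49 over the controls, and of the 5 channel genes measured 2 differed between cultures at 1 µg/ml and 0 at 100 ng/ml, against 41.2% and 39.7% of all genes. *ama-1*, the RNA polymerase II subunit that the study used as its reference for PCR, had 7.15, 7.35, 7.57, 7.35 and 7.55 in 0.01% controls 1 to 5 and 7.46, 7.97, 8.0, 7.83 and 7.66 in 0.001% controls 1 to 5 (log2 fold change -0.39, SE 0.13, limma adjusted p = 0.42), and was highest in 0.001% controls 2 to 4.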

How the data were processed

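RNA from the 10 DMSO control cultures of DA1316, with the 10 IVM arrays of the same cultures as comparison, was hybridised to 1-colour Affymetrix arrays. The authors deposited log2 probeset values made with RMA, which subtracts background, normalizes arrays by quantiles and summarises probes; no version is given in the sources used here, nor which arrays were normalized together. The table held 20575 probesets, and 12 controls for added RNA were dropped; 19181 had 1 gene in the platform annotation, 803 several and 579 none, and 19122 of the first were matched to RefSeq (WBcel235). A gene was read through 1 probeset of its own, annotated to it alone, that with the highest mean over the controls. Probesets with the suffix _x_at may still pick up RNA of related genes. No detection calls or depth exist for these values, so the number of arrays limits the precision.

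Groups came from titles. limma 3.58.1 (R 4.3.3) gave the contrast of 0.01% minus 0.001% DMSO over 10 control arrays, with no block, and an F test of cultures in each experiment over its 10 arrays with treatment as a term, both with Benjamini-Hochberg adjustment over 20563 probesets. P-values of the contrast measure the group difference against the spread between 5 cultures a group. Those of the F test set differences between cultures against what the treatment term leaves between the control and IVM arrays of a culture. No culture had a repeat array of either treatment. The SD is pooled within groups. Errors with fold changes are moderated standard errors. Families and 33 gene lists are described by counts and medians, with no set test. The members and lists were chosen with earlier results of these data known. Scripts were tested on simulated data. Python 3.11.15, numpy 2.4.6, pandas 2.3.3 and matplotlib 3.10.9 were used.

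Genes named were the 12 of largest SD, the 10 of smallest p in the contrast, the 10 brightest, the 6 brightest and 6 dimmest families, up to 4 members of a list by p or by SD, the mutated channel genes, *ama-1*, and the genes of the cyp-35, yolk, adult cuticle and study-named lists. The 12 of largest SD without 0.01% control 2 and the 4 genes of the widest gap were added after values were seen. The alternatives were a replicate block, quantile normalization again, median centring, bright probesets only, a robust eBayes with trend, quality weights for arrays, all 20 arrays with culture as a random block, an adjusted p under 0.10, all probesets of a gene for families, and each array or culture left out. Leaving out 0.001% controls 2 to 4, alone or with 0.01% control 2, restricting the culture test to some cultures and regrouping for the SD were chosen after seeing the data.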

Additional observations from a re-analysis of the deposited data

Results flagged for a closer look

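Among the genes named, 178 sets of 5 control arrays (89 probesets in each control group) were searched for an array far from the other 4, and 25 had one. Chance gives this for about 1 set in 20 of genes chosen without regard to their values. Many of these genes were chosen for their spread, among them the 12 of largest SD, all 12 of which were low in 0.01% control 2, and *pud-3* and *pud-4*, added after values were seen, so the count cannot be read against that rate. The array was 0.01% control 2 in 19 of the 25.

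In 18 of those 19 it was low. The yolk genes had 5.18 for *vit-2*, 5.91 for *vit-4*, 6.55 for *vit-5* and 8.49 for *vit-6*, against 9.62 or higher in the other 0.01% controls. The adult cuticle collagen *col-19* had 7.13, the eggshell gene *perm-2* 6.88, and the maternal RNAs *pos-1* and *nos-2* 8.15 and 5.56, against 8.91 or higher in the other 0.01% controls. Of the other genes with the largest SD, the values in 0.01% control 2 were 3.80 for *C10G8.4*, 4.11 for *ZK813.7*, 5.09 for *ZK813.1*, 4.59 for *Y62H9A.4*, 4.40 for *ule-5*, 4.73 for *Y57G11B.5*, 3.56 for *stha-3*, 3.85 for *EEED8.3*, 5.69 for *Y37D8A.19* and 4.29 for *K07A1.6*, against 8.38 or higher in the other 4 arrays. The gene that stood high there was *avr-14*, mutated in the strain, with 7.23 against 6.27 to 6.50.

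The other 6 were spread over 4 arrays. *gld-1* was high in 0.01% control 1, at 7.67 against 6.65 to 6.78. *pud-3* and *pud-4* were high in 0.001% control 1, at 9.60 against 4.44 to 4.98 and at 8.75 against 3.72 to 4.16, and *dpy-13* was low there, at 13.27 against 13.70 to 13.76. *glc-1* was low in 0.001% control 3, at 4.07 against 4.45 to 4.61. *fat-7* was low in the array labelled 0.001% control 4, at 6.96 against 8.91 to 9.24.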

How the results depend on the processing

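For the control groups limma called 0 probesets under every setting but array quality weights, which gave 3678 higher and 3477 lower in 0.01% DMSO; the cause was not tested. The counts at an unadjusted p under 0.05 without 1 array ran from 797 to 2408 higher and from 359 to 1833 lower, and the smallest adjusted p ran from 0.061, without 0.01% control 2, to 0.83. The replicate numbers come from separate experiments and do not pair the controls, as deviations from group means of same-numbered arrays correlated at -0.52, 0.38, -0.62, 0.19 and 0.33. With the replicate block 0 were higher and 0 lower (1129 and 699 at an unadjusted p under 0.05). The 10 named genes kept their direction in all alternatives run for each, and *C05D11.13* was too dim for the one with bright probesets only. These genes were chosen by p in the same contrast and their groups do not overlap. Leaving out arrays could therefore not reverse their direction, so that result is no support for them.

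The culture effect at 1 µg/ml ran from 5332, without culture 2, to 9742 with 1 culture left out. At 100 ng/ml it ran from 5544 to 8065, and was 461 with cultures 2 to 4 alone and 0 with cultures 1 and 5 alone, where fewer arrays entered and 2306 probesets had an unadjusted p under 0.05. The median SD ran from 0.247, without 0.01% control 2, to 0.271, without 0.01% control 3, and was 0.229 with cultures 2 to 4 of the 100 ng/ml experiment as a group of their own. The 12 brightest and dimmest families were the same with all probesets of a gene, with each DMSO group alone and with quantile normalization again, the 4 alternatives run for them. With 5 arrays a group, 3 of which form a set in 0.001% DMSO, the number of arrays limits which differences between the shares of DMSO can be detected.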

Other observations

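Histone genes had higher means in 0.01% DMSO in 23 of 24 cases, none past the adjusted threshold (limma), with a median log2 fold change of 0.40, and of 0.06 without 0.001% controls 2 to 4. *his-6*, a histone H3 gene, had 9.03, 9.24, 9.53, 9.46 and 9.52 in 0.01% controls 1 to 5 and 9.22, 8.79, 8.73, 8.74 and 9.14 in 0.001% controls 1 to 5, with the lowest values in 0.001% controls 2 to 4. The glutathione S-transferases, enzymes of detoxification, ran alike, with 38 of 41 genes higher in 0.01% DMSO, a median of 0.26, and of -0.03 without those arrays. *gst-43* had 8.51 to 9.22 in the 0.01% controls and 8.65, 7.82, 7.84, 7.46 and 8.64 in the 0.001% controls. *lys-6*, a lysozyme, had 9.55, 10.25, 9.11, 9.01 and 9.72 in the 0.01% controls and 7.39, 8.53, 8.44, 8.27 and 9.29 in the 0.001% controls, so its low array was 0.001% control 1.

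The genes of the propionate shunt, which breaks down propionate when vitamin B12 is scarce, and of the B12-dependent pathway beside it differed between cultures in 8 of 8 cases at 1 µg/ml and 7 of 8 at 100 ng/ml, against 41.2% and 39.7% of all genes. The list's median difference from the mean of the controls was 0.44, 0.65, -0.47, -0.39 and -0.50 in 0.01% controls 1 to 5 and -0.54, 0.43, 0.51, 0.47 and -0.26 in 0.001% controls 1 to 5. The low arrays were again 0.01% controls 3 to 5 and 0.001% control 1, with 0.001% control 5 beside them.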
